A study of Homo sapiens with 2 samples.

Results

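The Hippo pathway was examined through 10 genes on the whole-genome expression arrays of H9 human embryonic stem cells. These were the coactivator genes YAP1 and WWTR1, the transcription factor genes TEAD1, TEAD2, TEAD3 and TEAD4, and the target genes CCN1, CCN2, AMOTL2 and LATS2. A probe belonged to the set when the RefSeq accession that the array design gives it maps to one of these genes. That rule found 10 of the 58201 probes and 10 of the 22439 genes named on the array, with 1 probe for each gene. H9 is an established human embryonic stem cell line. Both substates were described by the study in cells kept on Matrigel, an extracellular matrix preparation, with TeSR-E8 medium. The study separated them by colony shape and staining, with the R-10G epitope strong and vimentin nearly absent in substate 1, and the reverse balance in the loosely packed colonies of substate 2. The substate 1 RNA came from passage 35 and the substate 2 RNA from passage 50, with 1 array each, so passage and substate cannot be told apart. The study's methods moved cells from vitronectin to Matrigel at passage 35 and do not state the matrix of the array RNA. How the cells of each substate were collected for RNA is not given in the sources used here.

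Hippo signalling is a kinase cascade that links cell shape, cell contacts and matrix stiffness to transcription. The kinases STK3 and STK4 activate LATS1 and LATS2, and these phosphorylate YAP and its paralogue TAZ, the product of WWTR1. Phosphorylated YAP and TAZ are held in the cytoplasm or degraded, and unphosphorylated YAP and TAZ enter the nucleus and act through the TEAD proteins, which bind DNA. CCN1 and CCN2 are the target genes most often read as reporters of this output, whereas LATS2 and AMOTL2 are targets that act back on the pathway as inhibitors. Messenger RNA therefore shows the supply of pathway components and the level of target transcripts, not where the YAP protein lies.

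The regulatory sequence of the target genes is shown first, because TEAD proteins recognise the letters GGAATG, or CATTCC on the opposite strand. RefSeq promoter windows for GRCh38.p14, of 250 bases before and 50 bases after each start, were searched on both strands. Of 35116 windows, 14.0% held at least 1 match and 0.128% held at least 3. Windows were listed for 7 of the 10 genes, and those of YAP1, LATS2, AMOTL2 and CCN2 held a match. CCN1, TEAD1 and TEAD4 had no window listed. The 250 bases before the CCN2 start, at chr6:131951373-131951622 on the minus strand, and those before a start of AMOTL2, at chr3:134374448-134374697 on the minus strand, follow with the matches in capitals. For LATS2 the 30 bases around its match at chr13:21061560-21061589, minus strand, are given.
CCN2: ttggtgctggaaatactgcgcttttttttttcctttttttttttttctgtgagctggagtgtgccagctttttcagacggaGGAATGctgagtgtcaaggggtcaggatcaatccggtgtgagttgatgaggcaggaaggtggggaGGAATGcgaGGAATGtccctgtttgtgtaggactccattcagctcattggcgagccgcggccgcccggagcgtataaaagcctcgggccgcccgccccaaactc
AMOTL2: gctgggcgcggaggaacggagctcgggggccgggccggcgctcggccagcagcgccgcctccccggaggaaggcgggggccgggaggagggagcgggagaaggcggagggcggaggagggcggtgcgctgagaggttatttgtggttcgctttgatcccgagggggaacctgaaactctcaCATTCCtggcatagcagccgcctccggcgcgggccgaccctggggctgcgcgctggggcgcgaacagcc
LATS2: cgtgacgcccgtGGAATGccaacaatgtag

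The CCN2 window held 3 matches on the strand of the gene, beginning at positions -169, -104 and -95 relative to its start. AMOTL2 held 1 match at position -69 in one of its windows and none in the other. The LATS2 match began 10 bases into the transcript, and YAP1 held 1 match at position -162. A match describes the letters of the window and is not a measured binding site.

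Every one of the 10 genes was well above background on both arrays, and no spot was saturated. Values are normalised log2 signals, that is, the log2 of the processed intensity minus the 75th percentile of the array, and differences are substate 2 minus substate 1. The intensity at that percentile was 314 in substate 1 and 275 in substate 2, so a slightly lower intensity in substate 2 can be a slightly higher normalised signal. With 1 array per substate no test was possible, no difference has a replicate check, and in RNA pooled from many cells a smaller number of cells with a transcript and less of it per cell cannot be told apart. Errors given with a difference are those of the scanner software's error model, which sets about 10% of the signal for bright spots. Spot noise was smaller for a typical probe. Over 291 probes printed 10 times, the median spot variances of both arrays gave an SD of 0.072 for a log2 difference between single spots. Some probes had wider spots, such as that of IGFBP3, with SDs over spots of 0.16 in substate 1 and 0.14 in substate 2. Neither error covers cells, RNA or labelling. Over the 29883 probes well above background on both arrays the median difference was 0.055. In 10 equal groups of these probes by signal it ran from -0.063 in the second dimmest to 0.21 in the brightest. A gene is called detected where a probe of it was well above background. The pluripotency genes POU5F1, NANOG, SOX2, LIN28A and DNMT3B were detected on both arrays, and TDGF1 had no probe named here. Of the neural markers NES was detected on both arrays, SOX1 only in substate 2 and PAX6 on neither. Of the endoderm markers FOXA2 was detected on both arrays and SOX17 on neither. The trophectoderm marker KRT7 was detected on both arrays, CGA only in substate 2, and GATA3 and HAND1 on neither. The fibroblast genes COL1A1 and COL1A2 were detected on both arrays, whereas DCN, LUM and POSTN were not. None of the 3 mesendoderm markers was detected. The summed log2 signal of the pluripotency list was 9.77 in substate 1 and 10.05 in substate 2. In the same order it was 4.52 and 4.87 for the neural list and 3.28 and 3.46 for the trophectoderm list. It was -2.70 and -1.97 for the endoderm list and -3.38 and -3.37 for the mesendoderm list.

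The largest differences among the 10 genes were those of the secreted targets, and both were lower in substate 2. CCN1, also known as CYR61, encodes a matrix-associated protein that binds integrins. Its processed intensity was 9794 in substate 1 and 4907 in substate 2, or 4.96 and 4.16 on the normalised log2 scale. The difference was -0.81 ± 0.20, a signal 1.75-fold lower in substate 2. CCN2, also known as CTGF, encodes a related protein with roles in fibrosis and matrix deposition. Its intensity was 1607 in substate 1 and 917 in substate 2, which gave normalised log2 signals of 2.36 and 1.74. The difference was -0.62 ± 0.20, or 1.54-fold lower in substate 2. For CCN1 the difference was 3.97 times its error-model SD, and for CCN2 it was 3.05 times. Both genes are also active in fibroblasts, and the summed log2 signal of the fibroblast list, with 2 of its 5 genes detected on each array, was 3.75 in substate 1 and 3.25 in substate 2. Its part in these differences was not tested.

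The CCN1 probe lay in the brightest of the 10 signal groups, in which the SD of the differences was 0.26 against 0.40 over all measured probes. Of the 2989 probes in that group, 9 (0.301%, CCN1 included) were as low as or lower than CCN1, whereas over all measured probes the share was 2.61%. For CCN2, which lay in the 8th group counted from the dimmest, the share was 2.84% of 2988 probes, and over all measured probes it was 5.49%. Set against the median of their own signal group, the differences became -1.02 for CCN1 and -0.70 for CCN2. These shares describe the pair of arrays and are not tests.

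**Figure D1:**
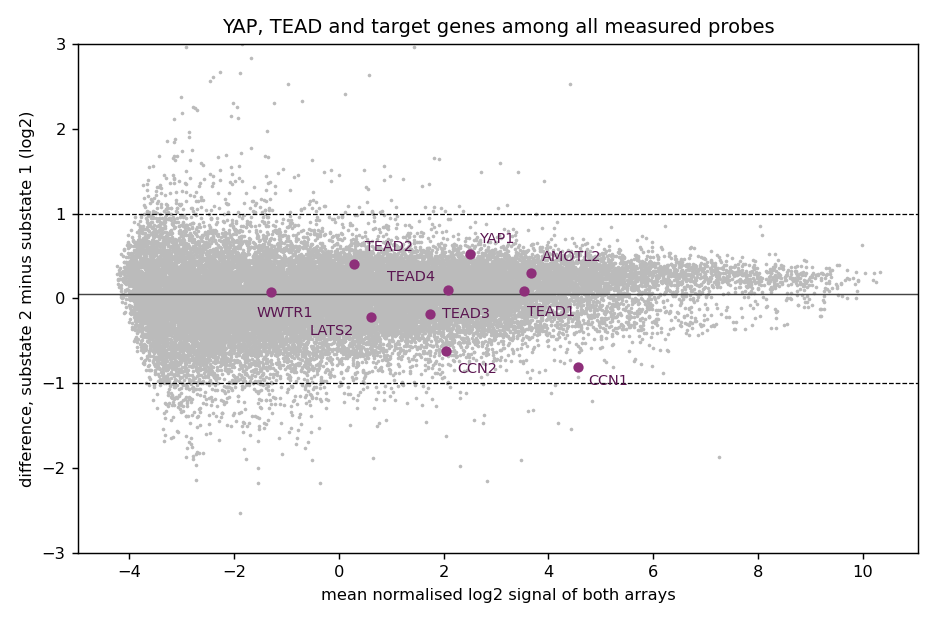
Difference between substates (log2, substate 2 minus substate 1) against the mean normalised log2 signal for the 29883 probes well above background on both arrays (grey), with the 10 genes in purple. Dashed lines mark 2-fold, the solid line marks the median of 0.055, and 5 probes beyond 3 in size lie outside the axis. CCN1 (-0.81) and CCN2 (-0.62) sit towards the lower edge of the cloud at their signal, and the other 8 genes lie between -0.22 and 0.52.

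AMOTL2 and LATS2, the targets that act back on the pathway, lay closer to 0. AMOTL2, a member of the angiomotin family that binds and retains YAP, had an intensity of 3625 in substate 1 and 3901 in substate 2, with normalised log2 signals of 3.53 and 3.82. It was 1.23-fold higher in substate 2, with a difference of 0.29 ± 0.20. That difference shrank to 0.18 after quantile normalisation, 0.17 after loess centring and 0.098 under normexp background correction, all within the error. LATS2, the kinase that phosphorylates YAP and TAZ, had an intensity of 517 in substate 1 and 390 in substate 2, or 0.72 and 0.50 after normalisation. Its difference of -0.22 ± 0.20 was close in size to the error-model SD. Of the 4 targets, 3 were lower and 1 was higher in substate 2, with a median difference of -0.42. Of all genes measured on both arrays 40.2% were lower, and 4 genes are too few to set firmly against that share. CCN2, with 3 matches to GGAATG in its window, and AMOTL2 and LATS2, with 1 each, did not all go the same way.

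YAP1, the gene of the coactivator, was higher in substate 2. Its probe was printed 10 times on each array, which gave a spread within the arrays. The spots ran from 2.17 to 2.33 in substate 1, with a mean of 2.23 ± 0.049 (SD, n = 10 spots), and from 2.70 to 2.82 in substate 2, with a mean of 2.76 ± 0.043 (SD, n = 10 spots). The ranges did not overlap, and spots of 1 array are not replicates of a substate. How many other probes printed 10 times had ranges apart was not counted, so the gap is not shown to be particular to YAP1. With the outlier spot of each array left out, the difference was 0.52 ± 0.20, or 1.44-fold higher in substate 2. Over all measured probes 6.46% were as high or higher, and within its own signal group 3.98% were. IGFBP3, a secreted binding protein for insulin-like growth factors on the list of further targets, was also printed 10 times and was chosen as a contrast after its values were seen. Its spots ran from -2.33 to -1.75 in substate 1 and from -2.12 to -1.67 in substate 2, so that they overlapped. The means were -1.98 and -1.95, and the SDs over spots were 0.16 and 0.14. The IGFBP3 probe was dimmer, its spots were wider and its means were nearly equal. Its overlap is therefore no measure of how unusual the YAP1 gap is.

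**Figure D2:**
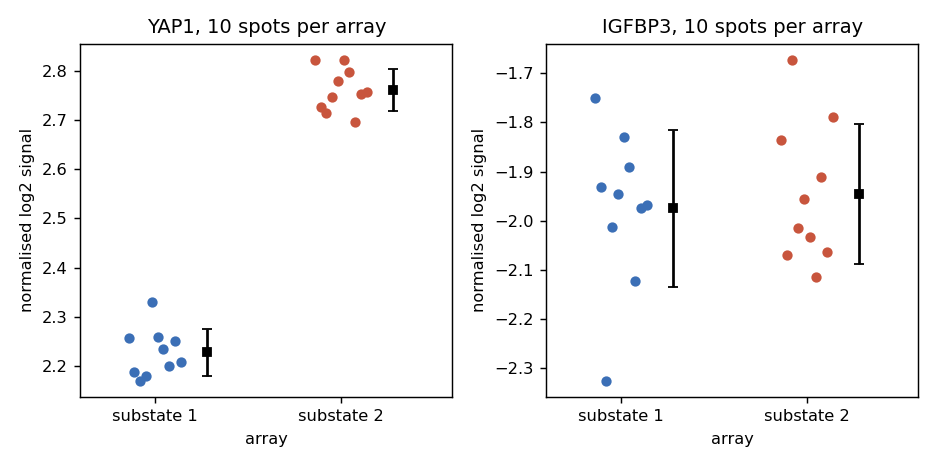
Normalised log2 signal of each of the 10 spots of the YAP1 probe (left) and of the IGFBP3 probe (right) on the substate 1 and substate 2 arrays, with black squares and bars for the mean and SD over spots. The YAP1 spots of substate 2 all lie above those of substate 1, whereas the IGFBP3 spots overlap. The vertical axes differ and do not start at 0.

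WWTR1, the gene of the TAZ protein, did not share the difference of YAP1. Its intensity was 125 in substate 1 and 115 in substate 2, which was 8.64 and 7.68 times the lowest signal well above background on each array. The normalised log2 signals were -1.33 and -1.25, and the difference was 0.073 ± 0.21. This was within the error model and close to the median of all measured probes.

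Among the 4 TEAD genes, which encode paralogous DNA-binding proteins, TEAD2 differed most. Its intensity was 336 in substate 1 and 390 in substate 2, with normalised log2 signals of 0.10 and 0.50. The difference was 0.40 ± 0.20, or 1.32-fold higher in substate 2, and 12.6% of the measured probes were as high or higher. TEAD3 had an intensity of 1114 and 860, signals of 1.83 and 1.64, and a difference of -0.18 ± 0.20. TEAD1 had an intensity of 3514 and 3283, signals of 3.49 and 3.58, and a difference of 0.090 ± 0.20, which turned to -0.020 after quantile normalisation and to -0.026 after loess centring. TEAD4, known for its role in the trophectoderm, had an intensity of 1284 and 1206, signals of 2.03 and 2.13, and a difference of 0.098 ± 0.20. The differences of TEAD1, TEAD3 and TEAD4 were thus within the error model, and that of TEAD2 was 1.98 times its SD. Since probe sequences were not used here, binding of a probe to transcripts of a paralogue was not tested.

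**Figure D3:**
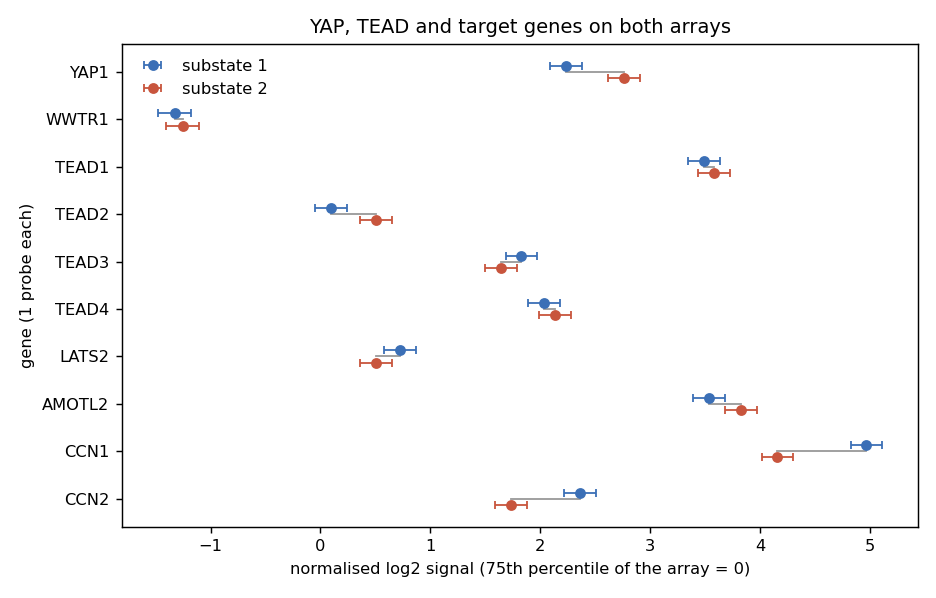
Normalised log2 signal of the 10 genes on the substate 1 array (blue) and the substate 2 array (red), with bars for the SD of the scanner software's error model. The bars of the pair of arrays are apart for YAP1, TEAD2, CCN1, CCN2 and, narrowly and with this scaling, AMOTL2, and overlap for the other 5 genes. Signals of different probes are not comparable as levels.

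Set against limits of size, the 10 genes differed little. None of them differed by 2-fold. Of the 33166 probes that were well above background in either substate, 1.55% were higher in substate 2 by 2-fold or more and 1.67% were lower by as much. None passed a Z-score of 2 in either direction, the rule of the study's methods, which 3.03% of all 58201 probes passed upwards and 3.3% downwards. The Z-scores of CCN1 and CCN2 were -1.39 and -1.10, and that of YAP1 was 0.71. These scores depend on the dim probes, which widen the spread. When the score ran only over probes well above background on both arrays, CCN1 reached -2.09. Under normexp background correction CCN1 reached -4.00 and CCN2 -3.22, but there a Z-score of -2 fell at a difference of only -0.37. The share of all probes past the limit in these settings is not given here, so the scores have no comparison. At a lower limit of 1.5-fold, chosen after the values were seen, CCN1 and CCN2 were lower and no gene was higher. CCN2 was no longer past that limit after centring on the median, at -0.58. Of the measured probes 6.37% were as far or further down and 4.68% as far or further up. With only 10 genes, 2 calls give no share that can be set firmly against those percentages.

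The order of the differences was YAP1, TEAD2, AMOTL2, TEAD4, TEAD1, WWTR1, TEAD3, LATS2, CCN2 and CCN1, from the highest to the lowest. Neighbours in this order differed by less than the error of a single difference, with the exceptions of WWTR1 and TEAD3, which were 0.26 apart, and of LATS2 and CCN2, which were 0.40 apart. In all, 6 genes were higher and 4 lower in substate 2, TEAD1 moving to the lower side after quantile normalisation and after loess centring, and the median was 0.081, beside 0.084 for the 16001 genes measured on both arrays. It was 0.010 after quantile normalisation, beside 0.046 for all those genes, and -0.0022 after loess centring, beside 0.035. The coactivator gene YAP1 and the secreted targets stood at opposite ends of the order.

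**Figure D4:**
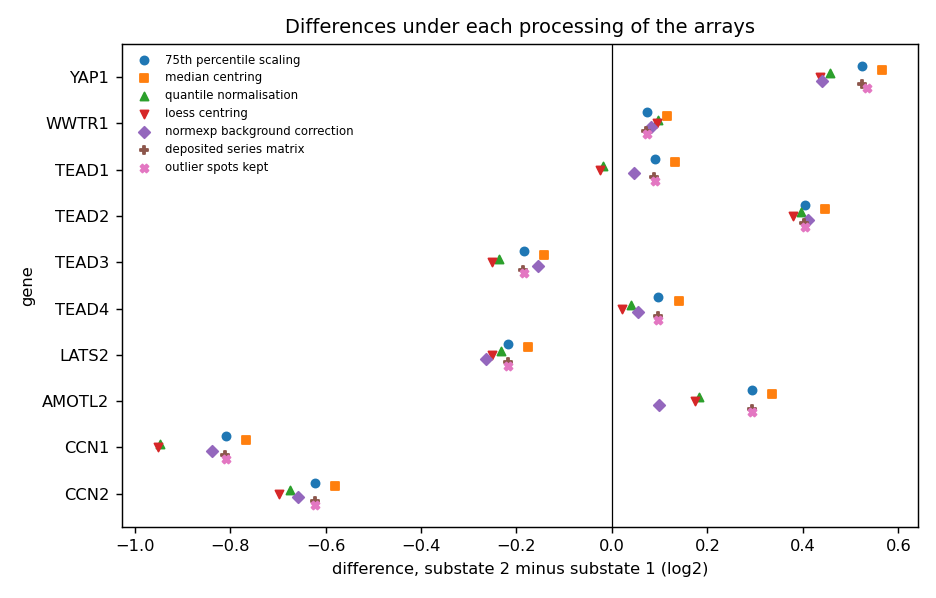
Difference of each of the 10 genes (log2, substate 2 minus substate 1) after scaling to the 75th percentile and under 6 other ways of processing the same arrays. CCN1 and CCN2 stay lower and YAP1 and TEAD2 stay higher in all 7, whereas TEAD1 lies on either side of 0.

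The upstream part of the pathway was read from a list of 21 genes of the kinase core and its regulators. Both arrays measured 20 of them, 12 with a mean difference above 0 and 8 below, a split that turned to 8 above and 12 below after quantile normalisation and after loess centring, and none of the 29 probes was 2-fold apart or past the Z-score limit. The median was 0.040, against 0.084 for all measured genes, of which 59.8% were above 0. Of the 20 genes 13 lay below the median of all measured genes, and 10 did so under normexp background correction. The list median turned negative after quantile normalisation and after loess centring. The core kinase genes differed little, with 0.078 for STK3, 0.22 for STK4 and 0.11 for LATS1, the kinase that acts beside LATS2. Their cofactors SAV1, MOB1A and MOB1B had 0.050, 0.26 and 0.13, of which that of SAV1 turned negative under the same pair of scalings. The LATS1 value was the mean of 2 probes that went opposite ways, at 0.35 and -0.14. The highest mean differences on the list were those of DCHS1 (0.36), a protocadherin that is the ligand of FAT4, followed by MOB1A and STK4. The lowest were those of TAOK3 (-0.51), a kinase that acts upstream of STK3 and STK4, AJUBA (-0.44), a LIM protein that restrains LATS kinases, and WWC2 (-0.26), a relative of the scaffold KIBRA. Both TAOK3 probes were lower, with -0.32 and -0.70. FAT4 itself was detected only in substate 2, by 1 of its 2 probes. The signals of that probe were dim, at -4.37 in substate 1 and -3.52 in substate 2, or 1.79-fold apart.

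The list of cofactors and binding partners held 7 genes, 5 of them measured on both arrays. Of these, 4 had a mean difference above 0 and 1 below, beside 59.8% of all measured genes above 0, and the median was 0.17. VGLL4, which competes with YAP for TEAD proteins, had 0.32, AMOTL1, a relative of AMOTL2, had 0.19, and VGLL3 had 0.17. The AMOTL1 value was the mean of probes that lay apart, at 0.010 and 0.36. PTPN14, a phosphatase that binds YAP and is also listed among the targets, was lower by all 3 of its probes, with -0.61, -0.39 and -0.40. AMOT, the founding angiomotin, had a probe with a difference of 0.061 and another, designed on a different transcript record, that was detected only in substate 1. That probe was at least 1.62-fold lower in substate 2, and its Z-score of -2.61 was the only one of the 13 probes past the limit. VGLL1 and VGLL2 were well above background on neither array.

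Further targets of YAP and TEAD were taken from a list of 18 genes, of which 12 were measured on both arrays. A mean difference below 0 was found for 8 of them and above 0 for 4 (7 and 5 after centring on the median). Of all measured genes 40.2% were below 0. The median of the list was -0.15, and 9 of the 12 lay below the median of all measured genes. That count was 8 after quantile normalisation and after loess centring. The median was -0.063 when dim probes were included. None of the 24 probes was 2-fold apart or past the Z-score limit. The lowest values were those of PTPN14 (-0.47), MYOF (-0.43), which encodes the membrane protein myoferlin, and ASAP1 (-0.26), an activator of Arf GTPases. The highest were those of FJX1 (0.41), DOCK5 (0.34), an exchange factor for Rac, and CCDC80 (0.16). The 2 DOCK5 probes lay apart, at 0.070 and 0.61. MYOF rested on 1 dim probe, at -2.69 in substate 1 and -3.12 in substate 2, and its other probe was well above background on neither array. The receptor tyrosine kinase gene AXL had -0.14 and F3, the gene of tissue factor, had -0.15. NT5E was detected only in substate 1, by 1 of its 2 probes, and was at least 1.87-fold lower in substate 2. ANKRD1, a further common reporter of YAP, was well above background on neither array, as were CRIM1, FOXF2, TGFB2 and RBMS3, so for these genes no direction can be given. The letters GGAATG, on either strand, were held by 6 of the 13 genes of this list with a promoter window. In the kinase core list they were held by 5 of 17 such genes, and among the cofactors by 2 of 7. Of all windows 14.0% held them. The counts are per gene and that share is per window. A gene with more than 1 window has more chances of a match, so the counts cannot be set directly against the share. PTPN14 counts in the lists of targets and of cofactors.

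**Figure D5:**
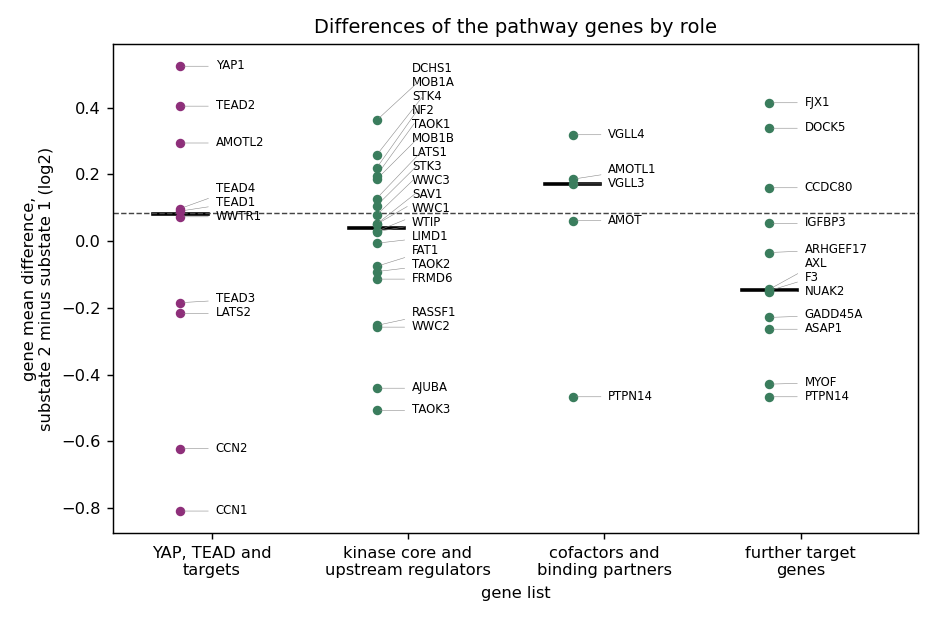
Gene mean difference (log2, substate 2 minus substate 1) of the 10 genes and of the measured genes of the 3 lists, each point a gene, with PTPN14 on 2 lists. Black bars are medians, at 0.081, 0.040, 0.17 and -0.15 from left to right, and the dashed line is the median of all measured genes, 0.084.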

How the data were processed

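Cy3-labelled RNA of each substate was hybridised to a single-colour Agilent array with 60901 non-control spots. The deposited scanner files give an intensity per spot, which, per the file headers, Feature Extraction 11.5.1.1 (protocol GE1_1105_Oct12) had corrected for background and spatial trends. Both arrays shared 1 slide and 1 scan. The authors also deposited log2 values scaled to the 75th percentile of each array, which differed from those computed here by 1 constant per array (100% of probes within 0.01).

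After the study's methods, a floor of 1 was set on intensities (0 spots were lower), the log2 values of a probe's spots without outlier flags were averaged, and each array's 75th percentile over non-control probes was subtracted. The Z-score was the difference minus its mean, divided by its SD over all probes. A probe detected on 1 array was given a bound, set against whichever was higher on the other array, its own value or the lowest signal counted as well above background. Gene values averaged the probes measured on both arrays. Probes were named by RefSeq accession (31104 of 58201 probes, GRCh38.p14 table), and those without a match are not counted. The array design is annotated on hg19, and coordinates belong to the RefSeq promoter windows only.

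Named are all 10 genes and, from each of 3 lists, those past 2-fold or else the 3 with the largest mean difference in each direction, with others added for context after their values were seen. The genes and lists were chosen with earlier results of these data known. Python 3.11.15, pandas 2.3.3, R 4.3.3 and limma 3.58.1 were used. The calculations were checked on simulated data with shifts larger than any difference of the 10 genes. That check does not cover smaller differences. The number of arrays limits the precision.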

Additional observations from a re-analysis of the deposited data

How the results depend on the processing

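No paired analysis was possible because a single array stood for each substate, and for the same reason no replicate could be left out. The scanner files used here have no gene name column, so choosing probes by gene name was not run, and normexp (offset 50) used the median spot signal and median background. Across median centring, quantile normalisation, loess centring (span 0.3), normexp, the deposited table and retained outlier spots, 9 of the 10 genes kept their direction, TEAD1 being the exception. The ranges were -0.95 to -0.77 for CCN1, -0.70 to -0.58 for CCN2, 0.44 to 0.57 for YAP1, 0.38 to 0.45 for TEAD2 and 0.098 to 0.34 for AMOTL2, whose lowest value came from normexp. The median of the 10 genes moved from 0.081 to -0.0022 under loess centring. That of the kinase core list moved from 0.040 to -0.055 under loess centring and to -0.043 under quantile normalisation, and that of the further targets from -0.15 to -0.063 with dim probes included. The number of genes past the Z-score limit rose from 0 to 2 under normexp, where a Z-score of -2 fell at a difference of -0.37 in place of -1.19. It rose to 1 over probes measured on both arrays. The share of all probes past the limit in those settings is not given here. The number past 1.5-fold was 1 in place of 2 after centring on the median, when CCN2 was at -0.58. The cause of these shifts was not tested.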
